A study of Mus musculus with 24 samples.

Results

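The kidneys compared here came from mice whose mitochondrial DNA polymerase lacks proofreading and from wild-type mice, all after ischemia reperfusion surgery. The comparison took 12 of the 24 kidney libraries of the series, chosen by their labels alone and not by any measured value. Of these, 6 carried the labels B-IRI and PolgD257A, and 6 carried the labels B-IRI and Polg+/+. B-IRI is the submitters' name for the ischemia reperfusion surgery, and the sources used here do not say what the B stands for. The other 12 libraries, 6 of each genotype after sham surgery, were used only as the reference for injury and for the effect of genotype without injury. The design text calls the animals of both genotypes littermates and asks what mitochondrial DNA mutations add to injury. The tissue was whole kidney, so each value averages over all of its cell types. The sources used here do not give the strain, age or sex, the number of mutant alleles, how long ischemia lasted or when the kidneys were taken. The labels call the libraries biological replicates, without saying whether each came from its own animal, so p-values measure only the spread between these samples.

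Polg encodes the catalytic subunit of the polymerase that copies mitochondrial DNA. The PolgD257A change is an inherited one that removes the enzyme's proofreading, so that point mutations build up in mitochondrial DNA of every tissue with age. Ischemia reperfusion injury strikes the proximal tubule first, above all its straight segment, which makes ATP almost entirely in mitochondria. Injured tubule cells switch off their transporters, switch on genes such as Havcr1, Lcn2 and Sox9, and signal to endothelium, fibroblasts and leukocytes. Surviving cells then either regain their transporters or stay in an injured state.

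Assigned reads per library ranged from 18669806 to 26341004 over the 12, which limits the precision of genes with few reads. PolgD257A and Polg+/+ libraries held 23070742 ± 2550268 and 23322094 ± 2032036 reads (SD, n = 6 each). Reads from mitochondrial DNA made up 8.56 ± 0.241% of the PolgD257A and 9.01 ± 0.367% of the Polg+/+ libraries, with an exact two-sided permutation p of 0.0368, or 0.108 after adjustment over the 5 library measures tested. None of the 5 measures passed after adjustment, but this share and that of the 50 most abundant genes did without Polg+/+ replicate 2 (adjusted exact permutation p = 0.0433 for each). The male-specific gene Ddx3y lay between 1104 and 1631 normalised counts in all 24 libraries, and Xist between 0 and 7.42. Polg itself lay at 1043 to 1147 (median 1062) normalised counts in Polg+/+ and 1091 to 1232 (median 1123) in PolgD257A kidneys after B-IRI, and did not pass the test (log2 fold change 0.08, limma adjusted p = 0.22). A base change of this kind need not alter the level of the mRNA, so this value does not check the genotype labels. Polg overlaps Fanci on the other strand, and the sources used here do not say whether counting used strand.

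After B-IRI, 2278 genes were higher and 2347 lower in PolgD257A than in Polg+/+ kidneys at a limma adjusted p under 0.05, which is 13.1% and 13.5% of the 17430 genes tested. Most of these changes were small. Among the called genes, 170 were at least 2-fold higher and 215 at least 2-fold lower. All 6 PolgD257A libraries lay above all 6 Polg+/+ libraries for 811 genes (4.65%) and below them for 1035 genes (5.94%). The median log2 fold change over all tested genes was 0.01, and all changes below are read against it. In sham kidneys the same genotype comparison called 37 genes (0.212%), 25 higher and 12 lower, and it called 13 and 6 without PolgD257A sham replicate 4 and 16 and 7 without replicate 5. Without Polg+/+ sham replicate 3 or 5 it called 7 lower genes. Among the 12 largest rises after B-IRI, counting only genes that averaged 100 normalised counts or more, were Lcn2, Fgb, Sox9, Krt20, Lif, Fga, Fgg, Flnc, Plin2 and Hk2. The 12 largest falls were Nccrp1, Egf, Pvalb, Mep1b, Slc7a13, Tmem207, Kcnt1, Nat8f6, Slc22a22, A4gnt, Akr1c14 and Etnppl.

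Kidneys of both genotypes were uneven after B-IRI. On the first principal component over all 24 libraries, which held 56.7% of the variance, the sham libraries lay at -43.5 to -35.5. Polg+/+ B-IRI replicates 1, 4 and 5 lay at 3.55, 12.4 and 13.6 and replicates 2, 3 and 6 at 29.7, 33.7 and 33.0. The PolgD257A B-IRI libraries lay at 51.2 to 72.4, beyond all of the others. Of these, replicates 1 and 4 lay at 72.4 and 71.9 and the rest at 51.2 to 61.3. The median within-group SD over genes was 0.18 on the log2 scale in PolgD257A and 0.16 in Polg+/+ B-IRI kidneys. In sham kidneys it was 0.16 in PolgD257A and 0.15 in Polg+/+.

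**Figure D1:**
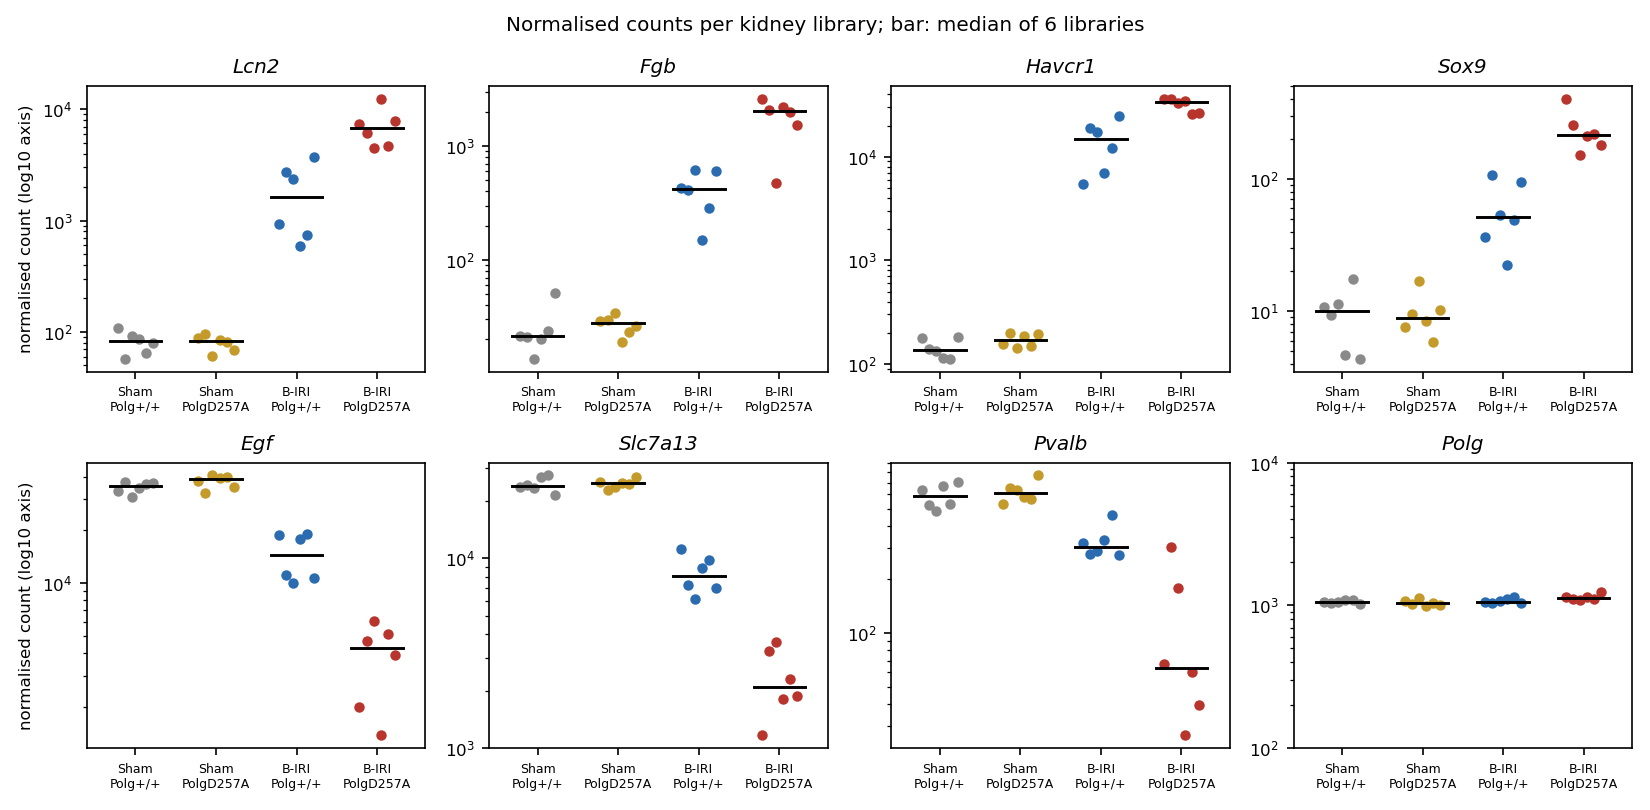
Normalised counts (log10 axis) of Lcn2, Fgb, Havcr1, Sox9, Egf, Slc7a13, Pvalb and Polg in each of the 24 kidney libraries, by group. Each point is 1 library and the bar is the group's median. Lcn2, Havcr1 and Sox9 of the 6 PolgD257A kidneys after B-IRI lie above all 6 Polg+/+ kidneys, Egf and Slc7a13 lie below them, Fgb and Pvalb overlap through 1 PolgD257A library each, and Polg differs little between the groups.

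The fibrinogen chains were among the largest rises. Fga, Fgb and Fgg encode the 3 chains of the clotting protein, made in quantity by the liver as part of the acute phase response and by tubule cells in the injured kidney. The genes lie together on chromosome 3 of GRCm38, Fgg at chr3:83007724-83015049, Fga at chr3:83026076-83033627 and Fgb, on the other strand, at chr3:83040141-83049863 (GENCODE M21). Because the 3 genes are neighbours that rose together, the RefSeq sequence (GRCm38.p6) before each start is shown 5′ to 3′ on the gene's strand. Capitals mark matches to the motifs TTCNNNGAA (a STAT dimer site), TTGCNNAA (C/EBP), TGANTCA (AP-1) and GGGAANNNC (NF-kB half-site). The TATA box (TATAAA), the CAAT box (CCAAT), a joint site of ATF4 with C/EBP (TGATGNAA) and the HNF1 half-site (GTTAATNAT) were searched too and had no match in the bases shown, and both strands were read for all 8. Fga (chr3:83025903-83026075, forward strand), Fgb (chr3:83049864-83050113, reverse strand) and Fgg (chr3:83007474-83007723, forward strand) follow. The RefSeq start of Fga lies at base 83026153, and the last 77 bases before it, which GENCODE M21 puts in an exon, are not shown.
Fga: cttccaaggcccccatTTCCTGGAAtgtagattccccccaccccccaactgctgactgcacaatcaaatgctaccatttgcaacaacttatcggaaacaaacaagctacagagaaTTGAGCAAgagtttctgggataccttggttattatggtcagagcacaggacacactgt
Fgb: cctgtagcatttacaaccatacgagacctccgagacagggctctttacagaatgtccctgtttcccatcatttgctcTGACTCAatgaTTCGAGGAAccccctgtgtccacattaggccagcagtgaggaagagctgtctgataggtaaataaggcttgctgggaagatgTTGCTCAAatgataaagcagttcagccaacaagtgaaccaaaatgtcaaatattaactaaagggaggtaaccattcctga
Fgg: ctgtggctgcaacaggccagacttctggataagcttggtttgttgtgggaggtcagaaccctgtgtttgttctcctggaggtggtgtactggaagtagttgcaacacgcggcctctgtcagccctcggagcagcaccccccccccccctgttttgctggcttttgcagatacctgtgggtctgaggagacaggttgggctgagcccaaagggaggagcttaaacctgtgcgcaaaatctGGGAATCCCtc
The Fga and Fgb windows each held a STAT and a C/EBP match, 234 and 135 bases before the RefSeq start of Fga and 162 and 80 bases before that of Fgb. An HNF1 half-site match, 46 bases before the RefSeq start of Fga, fell in the bases not shown. The Fgb window also held an AP-1 match 173 bases before the start, and the Fgg window held the NF-kB half-site 11 bases before it. Of all 32851 RefSeq windows of 250 bases, 7.02% held the STAT letters, 9.56% the C/EBP letters, 6.75% the AP-1 letters, 16.5% the NF-kB half-site and 0.737% the HNF1 half-site. The shares were 12.4% for the TATA box, 33.8% for the CAAT box and 3.45% for the ATF4 letters. These matches are descriptions of letters, and binding was not measured.

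Fgb lay at 150 to 619 (median 418) normalised counts in Polg+/+ and at 471 to 2599 (median 2029) in PolgD257A kidneys after B-IRI, against 13.5 to 51.6 in sham Polg+/+ kidneys. PolgD257A replicate 3, at 471, fell within the Polg+/+ range, and the other 5 PolgD257A libraries, from 1521 upward, were all above it. The log2 fold change of Fgb was 2.09 (SE 0.40, limma adjusted p = 0.0021). Fga ranged from 1114 to 3429 (median 2209) in Polg+/+ and from 2566 to 10765 (median 8953) in PolgD257A kidneys, a log2 fold change of 1.79 (SE 0.32, adjusted p = 0.0016). Fgg ranged from 922 to 3134 (median 2100) and from 2378 to 9369 (median 7516), a log2 fold change of 1.68 (SE 0.33, adjusted p = 0.0022). The lowest PolgD257A value of all 3 chains was that of replicate 3, and without it the groups of none of the 3 chains overlapped. In sham kidneys none of the 3 chains passed the genotype test, with log2 fold changes of 0.41, 0.19 and -0.02 for Fga, Fgb and Fgg.

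The list of fibrinogen, acute phase and interleukin-6 family genes held 25 genes, of which 20 had enough counts to be tested. Of these 15 were higher and 0 lower, with a median log2 fold change of 0.98, beside 13.1% higher and 13.5% lower over all genes. Without the 3 fibrinogen chains it was 12 of 17 higher and 0 lower, with a median of 0.88. Lif, a cytokine of the interleukin-6 family, ranged from 41.4 to 189 (median 90.1) in Polg+/+ and from 154 to 478 (median 401) in PolgD257A kidneys, a log2 fold change of 1.96 (SE 0.36, limma adjusted p = 0.0018). PolgD257A replicate 3 was again the lowest of its group, and it alone fell within the Polg+/+ range. Stat3, the transcription factor that these cytokines activate, lay at 2002 to 3165 (median 2563) against 3439 to 4428 (median 3775) with no overlap. Its log2 fold change was 0.61 (SE 0.09, adjusted p = 7.0e-04). Cp, the copper carrier ceruloplasmin, had a log2 fold change of 0.63 (adjusted p = 1.8e-04). The complement gene C4b did not pass (log2 fold change 0.37, adjusted p = 0.26). Nor did the shared receptor chain Il6st (0.19, adjusted p = 0.054), though it passed without Polg+/+ replicate 2 or 6 or PolgD257A replicate 3 (adjusted p = 0.025 to 0.039). Hpx, Saa2, Saa3, Itih4 and Osm were at or below 12.5 normalised counts in all 12 libraries and were not tested.

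Because liver makes most of these proteins, hepatocyte markers were read beside them. Of 10 hepatocyte genes 6 were tested, and 0 were higher and 1, the thyroid hormone carrier Ttr, was lower (log2 fold change -1.10, limma adjusted p = 2.1e-05). The count of lower genes was near the 13.5% of all genes. Without Polg+/+ replicate 2 or PolgD257A replicate 2 or 5 the list had 2 lower genes. The summed normalised counts of the list lay at 2126 to 2864 in Polg+/+ and 1292 to 1969 in PolgD257A kidneys. Cyp7a1, the rate-limiting enzyme of bile acid synthesis, was at 0 in all 12 libraries, and Ahsg, Tat and Cyp2c29 were at or below 2.50. Which cells the fibrinogen and acute phase RNA came from was not tested.

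Genes of the injured tubule formed the other main block of rises. Of 26 genes on this list 20 were higher and 0 lower, with a median log2 fold change of 0.99, and for 11 of them the groups did not overlap. Over all tested genes 13.1% were higher, and 4.65% were higher without overlap. Lcn2 encodes lipocalin 2 (NGAL), a clinical injury marker that binds bacterial iron carriers. It ranged from 589 to 3709 (median 1632) normalised counts in Polg+/+ and from 4486 to 12373 (median 6722) in PolgD257A kidneys, against 57.3 to 110 in sham Polg+/+ kidneys. The lowest PolgD257A value was above the highest Polg+/+ value, and the log2 fold change was 2.20 (SE 0.42, limma adjusted p = 0.002). Havcr1 encodes KIM-1, a phagocytic receptor of injured proximal tubule cells. It ranged from 5441 to 24888 (median 14823) in Polg+/+ and from 25923 to 36062 (median 33755) in PolgD257A kidneys. The groups did not overlap, but Polg+/+ replicate 6, at 24888, lay just below the lowest PolgD257A value, 25923 in replicate 5. The log2 fold change of Havcr1 was 1.34 (SE 0.30, adjusted p = 0.0053).

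Sox9, a transcription factor of regenerating tubule cells, ranged from 22.4 to 107 (median 51.4) in Polg+/+ and from 152 to 399.8 (median 214) in PolgD257A kidneys, a log2 fold change of 2.06 (SE 0.33, limma adjusted p = 8.2e-04). Krt20, a keratin of injured tubule cells, ranged from 414 to 1702 (median 1061) and from 2297 to 5594 (median 3101), a log2 fold change of 1.96 (SE 0.34, adjusted p = 0.0011). Neither gene's groups overlapped. Myc, a growth-promoting transcription factor, lay at 186 to 465 against 715 to 999.6 with no overlap and had a log2 fold change of 1.24 (adjusted p = 5.2e-04). Spp1, the secreted phosphoprotein osteopontin, had the largest gain in normalised counts of any gene, from 46822 to 159132 (median 95970) up to 150024 to 327633 (median 232350). Its groups overlapped through PolgD257A replicate 3 and Polg+/+ replicate 6. Clu, the extracellular chaperone clusterin, lay at 9329 to 25882 against 20736 to 61219, with PolgD257A replicate 3 again the lowest of its group. Plin2, which coats lipid droplets, lay at 3628 to 6739 against 6357 to 26428, and here PolgD257A replicate 2 was the lowest and the only one within the Polg+/+ range. The ferritin heavy chain Fth1 had a smaller fold change on a high level (log2 fold change 0.42, adjusted p = 0.018). Krt7 (log2 fold change 0.02, adjusted p = 0.89) and Itgb6 (-0.12, adjusted p = 0.17) did not pass.

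Egf moved opposite to these genes. It encodes epidermal growth factor, which the thick ascending limb and distal convoluted tubule make and shed into urine, and it lies at chr3:129677565-129755316. The 250 bases before its first RefSeq start (GRCm38.p6, chr3:129755323-129755572, reverse strand) are shown because the gene had the second largest fold change downward of the genes named. Capitals mark its one motif match, the C/EBP letters 71 bases before the start.
Egf: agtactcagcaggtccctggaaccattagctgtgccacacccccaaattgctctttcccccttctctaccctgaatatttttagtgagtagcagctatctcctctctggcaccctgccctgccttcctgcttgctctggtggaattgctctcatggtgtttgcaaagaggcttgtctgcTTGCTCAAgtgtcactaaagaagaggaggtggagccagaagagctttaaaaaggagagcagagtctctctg
Egf ranged from 9953 to 18852 (median 14462) normalised counts in Polg+/+ and from 1378 to 6080 (median 4292) in PolgD257A kidneys, against 30655 to 37199 in sham Polg+/+ kidneys. No PolgD257A library reached the lowest Polg+/+ one, and the log2 fold change was -2.03 (SE 0.33, limma adjusted p = 8.1e-04). Egf overlaps genes on the other strand, 6330410L21Rik among them. Of the 8 ligands and receptor on the epidermal growth factor list 6 were tested, 2 were higher and 1 lower, beside 13.1% and 13.5% of all genes. The count of lower genes was near that share. In sham kidneys 1 was called, Areg, at 0 in Polg+/+ and 1.06 to 7.22 in PolgD257A (log2 fold change 2.15, limma adjusted p just under 0.05). These counts were below the filter's minimum of 10, which Areg met only through B-IRI libraries. After B-IRI Areg did not pass (0.77, adjusted p = 0.25). Hbegf, a ligand shed from injured cells, lay at 376 to 529 against 603 to 895 with no overlap and had a log2 fold change of 0.76 (adjusted p = 3.9e-04). The receptor Egfr had a log2 fold change of 0.24 (adjusted p = 0.019). Tgfa (log2 fold change 0.10, adjusted p = 0.52) and Btc (-0.34, adjusted p = 0.16) did not pass.

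Each list of tubule segment genes held more lower than higher genes in PolgD257A kidneys, beside 13.5% lower and 13.1% higher over all genes. In bulk tissue, fewer cells of a type and less RNA per cell cannot be told apart. In the straight proximal tubule 17 of 20 genes were lower and 0 higher (median log2 fold change -0.75), and in the early proximal tubule 17 of 25 were lower and 0 higher (median -0.53). Slc7a13, the straight-segment cystine and aspartate transporter, lies at chr4:19818725-19842218. It ranged from 6144 to 11216 (median 8100) in Polg+/+ and from 1169 to 3631 (median 2098) in PolgD257A kidneys, against 21570 to 27351 in sham Polg+/+ kidneys. The groups did not overlap, and the log2 fold change was -1.91 (SE 0.23, limma adjusted p = 2.3e-04). Inmt, an amine methyltransferase, lay at 3895 to 6829 against 1529 to 2697 with no overlap (log2 fold change -1.34, adjusted p = 1.6e-04). Slc22a30, an organic anion transporter of the same segment, lay at 2875 to 4307 against 1190 to 2041 with no overlap (log2 fold change -1.04, adjusted p = 1.6e-04). Acsm2, which joins coenzyme A to medium-chain acids, lay at 56557 to 76610 against 35372 to 46216 with no overlap (log2 fold change -0.67). Slc5a10, a sugar transporter, did not pass (log2 fold change -0.25, adjusted p = 0.34). Slc13a1, a sulphate transporter, stood at 0.39 (adjusted p = 0.11) and was higher without PolgD257A replicate 3 (adjusted p = 0.012).

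Nccrp1, which encodes an F-box domain protein, had the largest fall of the genes named, from 475 to 1558 (median 729.7) down to 39.9 to 683 (median 174), with overlap through PolgD257A replicate 3 at 683 (log2 fold change -2.41, SE 0.59, limma adjusted p = 0.008). In normalised counts the 5 largest losses were those of Kap, mt-Cytb, Slc34a1, Acsm2 and Slc27a2. Kap, an androgen-regulated secreted protein of the proximal tubule, lay at 237910 to 341999 against 143320 to 281648 (-0.55, adjusted p = 0.03). Its adjusted p was 0.05 to 0.077 without any one of Polg+/+ replicates 1, 3, 5 and 6 and PolgD257A replicates 1, 4 and 5. Slc27a2, which activates long-chain fatty acids, lay at 52553 to 73046 against 25411 to 46473 with no overlap (-0.65, adjusted p = 0.0032). Other proximal genes were among the 12 largest falls. Mep1b, a subunit of the brush border protease meprin, lay at 1775 to 3638 (median 2178) against 324 to 1548 (median 673), with no overlap (log2 fold change -1.95, SE 0.32, limma adjusted p = 9.2e-04). Nat8f6, of the N-acetyltransferase 8 family, lay at 1401 to 1995 against 302 to 846 with no overlap (log2 fold change -1.64, adjusted p = 2.4e-04). Slc22a22, a prostaglandin transporter, lay at 777 to 1144 against 207 to 519 with no overlap (log2 fold change -1.62). In all 3 the highest PolgD257A library stayed below the lowest Polg+/+ one. Akr1c14, an aldo-keto reductase, and Etnppl, a phospholyase, also had no overlap, with log2 fold changes of -1.55 and -1.51. Of the early segment, Slc34a1, the main renal phosphate transporter, lay at 66389 to 96779 (median 78221) against 36636 to 54551 (median 43023) with no overlap. Its log2 fold change was -0.84 (SE 0.12, adjusted p = 5.4e-04). Miox, which breaks down inositol (log2 fold change -0.97), Ass1, which makes argininosuccinate (-0.79), and the brush border enzyme Ggt1 (-0.55) also had no overlap. Slc5a2, the glucose transporter of the first segment, did not pass (log2 fold change -0.15, adjusted p = 0.34), nor did the bicarbonate exporter Slc4a4 (-0.17, adjusted p = 0.27).

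Distal segments were lower as well, beside 13.5% lower and 13.1% higher over all genes. In the thick ascending limb 12 of 14 genes were lower and 0 higher (median log2 fold change -0.61), and in the distal convoluted and connecting tubule 12 of 13 were lower and 1 higher (median -0.67). Tmem207, which encodes a membrane protein, lay at 146 to 383 against 25.7 to 161 (log2 fold change -1.88, limma adjusted p = 0.0018). Ppp1r1a, a phosphatase inhibitor of the thick limb, had a log2 fold change of -0.89, and the calcium sensor Casr and the potassium channel Kcnj1 had -0.77 and -0.72, none with overlap. Pvalb, a calcium buffer that marks the early distal convoluted tubule, ranged from 274 to 460 (median 303) in Polg+/+ and from 26.6 to 306 (median 63.6) in PolgD257A kidneys. PolgD257A replicate 2, at 306, was the only library of its group within the Polg+/+ range, and the log2 fold change was -2.01 (SE 0.46, adjusted p = 0.0054). Slc8a1, which exports calcium, lay at 2292 to 3075 against 721 to 1641 with no overlap (log2 fold change -1.05). Kl, the ageing-related co-receptor klotho, lay at 9401 to 12621 against 5021 to 7688 with no overlap (log2 fold change -0.80, SE 0.09, adjusted p = 1.9e-04). The salt-handling regulator Klhl3 (-0.84) and the magnesium channel Trpm6 (-0.67) also had no overlap. The exception was Trpv5, the calcium entry channel of the same segment, which rose (log2 fold change 0.56, SE 0.15, adjusted p = 0.016).

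In the collecting duct 7 of 11 tested principal cell genes and 8 of 13 intercalated cell genes were lower, and 0 of either list were higher, with median log2 fold changes of -0.42 and -0.48. The cortisol-inactivating enzyme Hsd11b2 (log2 fold change -0.48, limma adjusted p = 6.2e-04) and the water channel Aqp3 (-0.64, adjusted p = 0.0091) fell among the principal cell genes. Aqp2, the vasopressin-regulated water channel, did not pass (log2 fold change -0.42, adjusted p = 0.12). Among intercalated cell genes, the proton pump subunit Atp6v1b1 (-0.75, adjusted p = 7.0e-04), the receptor Insrr (-0.90, adjusted p = 5.6e-04) and pendrin, Slc26a4 (-0.48, adjusted p = 6.7e-04), fell. Foxi1, the transcription factor that specifies intercalated cells, was lower in PolgD257A without injury. It lay at 537 to 1044 in sham Polg+/+ and 279 to 423 in sham PolgD257A kidneys (log2 fold change -0.87, adjusted p = 0.0059). After B-IRI it lay at 328 to 466 and 327 to 438 (log2 fold change -0.04, adjusted p = 0.79), and its genotype effect differed between the surgeries (interaction 0.83 on the log2 scale, adjusted p = 0.0022).

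**Figure D2:**
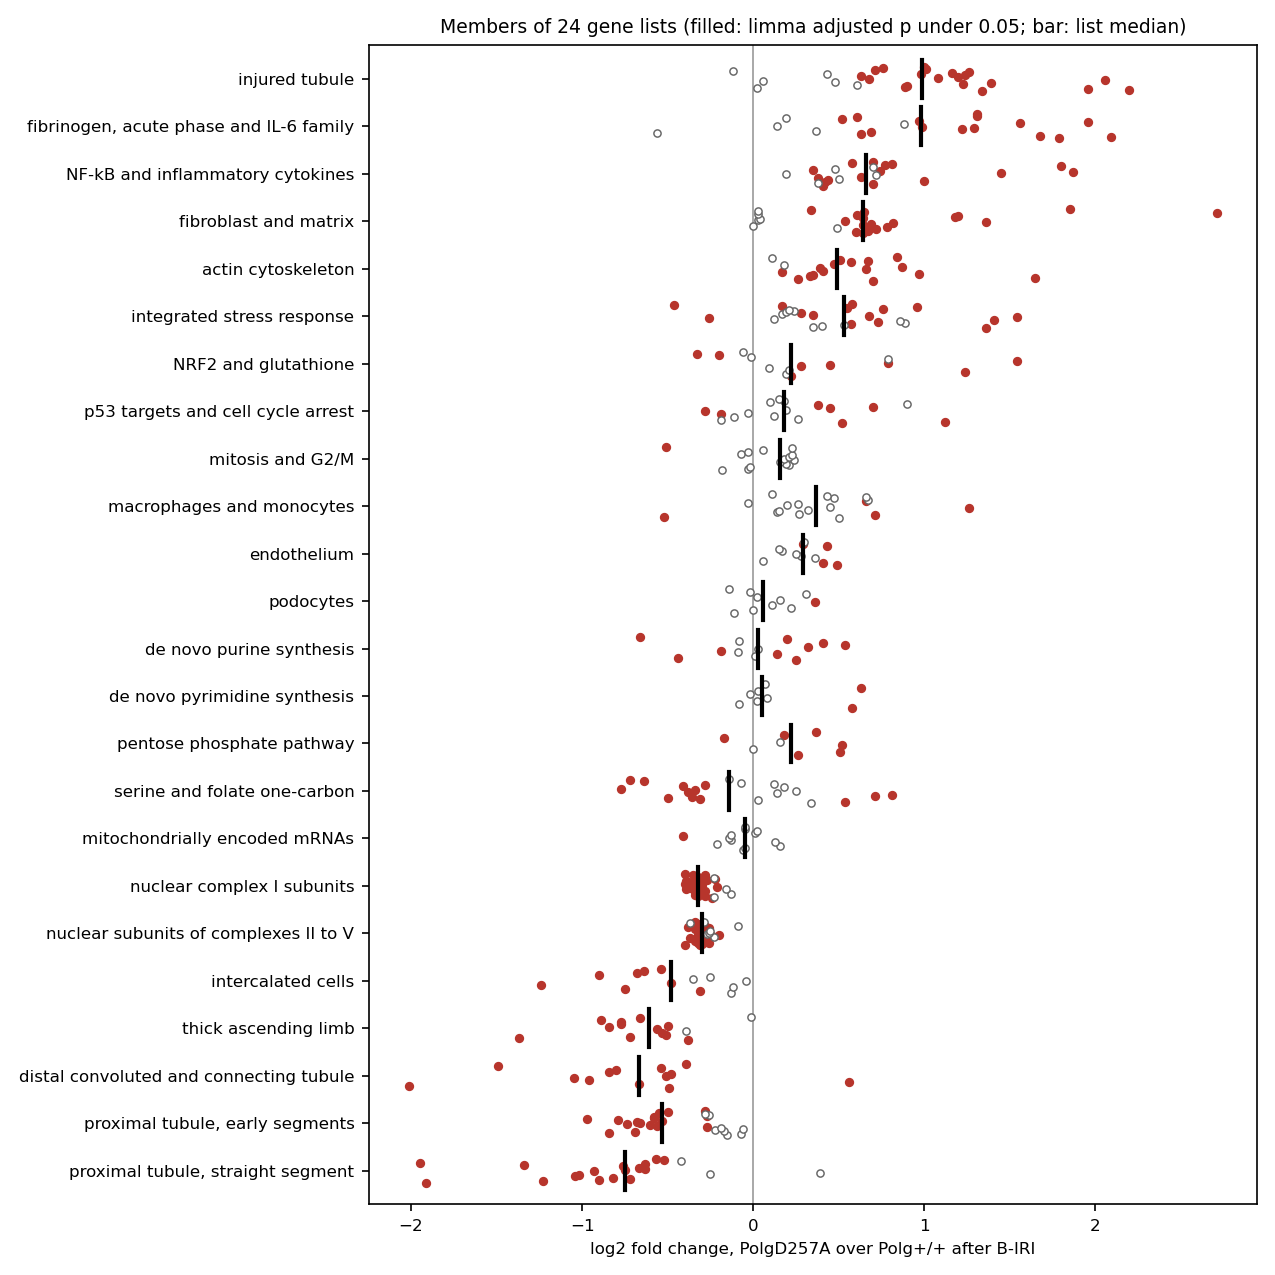
Log2 fold change, PolgD257A over Polg+/+ after B-IRI, of each tested member of 24 gene lists. Points are genes, filled where the limma adjusted p is under 0.05, and the black bar is the list's median. All filled points of the proximal and thick limb lists lie below 0, those of the injured tubule and acute phase lists lie above 0, and no member of the mitochondrial, purine, pyrimidine, pentose phosphate and one-carbon lists lies beyond 1 of 0.

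Lists of non-epithelial cells are given beside shares of 13.1% higher and 13.5% lower over all genes. Differences between these lists were not tested. Of 11 endothelial genes 4 were higher and 0 lower (median log2 fold change 0.29), with Pecam1 at 0.49 (limma adjusted p = 0.0074) and Eng, a TGF-beta co-receptor, at 0.43 (adjusted p = 0.0046). The endothelial count was 2 without Polg+/+ replicate 1 or 5 or PolgD257A replicate 1 or 4. In sham kidneys 0 endothelial genes passed, with a median of 0.17. A difference in genotype effect between the surgeries passed for 0 of the 11. Of 10 podocyte genes 1 was higher, the actin-associated Synpo (log2 fold change 0.36, adjusted p = 0.002), and 0 were lower, both below those shares. Without Polg+/+ replicate 5 the podocyte list had 2 higher genes, and without PolgD257A replicate 3 it had 3 higher and 1 lower. Of 18 macrophage and monocyte genes 3 were higher and 1 lower, near or below the 13.1% and 13.5% of all genes. The lipopolysaccharide co-receptor Cd14 lay at 209 to 503 against 545 to 836 with no overlap (log2 fold change 1.26, adjusted p = 7.0e-04), and Cd68 rose (0.71, adjusted p = 0.0026). The integrin gene Itgam (0.66, adjusted p = 0.037) did not pass without any one of Polg+/+ replicates 1, 4 and 5 and PolgD257A replicates 1, 2 and 4 (adjusted p = 0.068 to 0.087). The macrophage growth factor receptor Csf1r fell, from 785 to 1004 down to 473 to 723, with no overlap (log2 fold change -0.52, adjusted p = 0.0014). C1qa and Lyz2 did not pass (0.14, adjusted p = 0.53, and 0.27, adjusted p = 0.50).

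Leukocyte genes other than these were low. Of 10 neutrophil genes 3 had enough counts to be tested and all 3 were higher, S100a8 and S100a9, which form calprotectin, and Csf3r (log2 fold changes 1.34, 1.35 and 1.11). S100a8 and Csf3r did not pass without Polg+/+ replicate 1 or 4 or PolgD257A replicate 1 or 4 (limma adjusted p = 0.05 to 0.07). S100a9 lay at 14.6 to 55.9 in Polg+/+ and 34.8 to 178 in PolgD257A kidneys. The summed counts of the list were 38.9 to 128 and 83.7 to 507, while Ly6g was at or below 1.78 and Mpo, Elane, Camp and Ngp at or below 3.04 in all 12 libraries. Cxcr2, also not tested, lay at 0 to 9.17 in Polg+/+ and 2.17 to 32.0 in PolgD257A kidneys. Retnlg, likewise not tested, lay at 0.860 to 10.5 and 4.52 to 23.1. Neutrophils also make Lcn2, whose part from these cells was not tested. Of 12 lymphocyte genes 1 was lower, the T cell receptor component Cd3g (log2 fold change -0.91, limma adjusted p = 0.038), and 0 were higher. It did not pass without any one of Polg+/+ replicates 2, 3, 5 and 6 and PolgD257A replicates 3 to 6 (adjusted p = 0.054 to 0.078). Of 6 red cell genes Slc4a1, the anion exchanger that intercalated cells also use, was lower (log2 fold change -1.24, adjusted p = 0.0089). Without PolgD257A replicate 3 the list also had 1 higher gene. The counts of lower lymphocyte and red cell genes, 1 each, were near or below the 13.5% of all genes. The haemoglobin genes Hba-a1 and Hbb-bs did not pass (0.16, adjusted p = 0.42, and 0.08, adjusted p = 0.78).

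Matrix and actin genes rose, beside shares of 13.1% higher and 13.5% lower over all genes. Of 25 fibroblast and matrix genes 19 were higher and 0 lower (median log2 fold change 0.64), and of 18 actin cytoskeleton genes 16 were higher and 0 lower (median 0.49). Mmp7, a matrix protease of injured tubule cells, was at 2.58 to 14.7 (median 5.21) against 28.0 to 87.0 (median 39.0) with no overlap (log2 fold change 2.71, SE 0.34, limma adjusted p = 2.6e-04). Its counts were low, and the pseudocount of 1 draws the fold change toward 0. Of the Polg+/+ libraries after B-IRI only replicate 3, at 14.7, reached the minimum count of the filter for testing. The others lay at 2.58 to 6.04, while every PolgD257A library reached it. Among the B-IRI libraries Mmp7 thus met the filter mainly through the group where it was high, and its call is a description. Ccn1, a matrix protein and target of YAP (log2 fold change 1.18), and the basement membrane collagen Col4a1 (0.67) also had no overlap. Dcn, the fibroblast proteoglycan decorin, did not pass (log2 fold change 0.03, adjusted p = 0.88), nor did fibronectin, Fn1 (0.49, adjusted p = 0.14). Of the actin genes, Flnc, a filamin, lay at 55.3 to 424 against 544 to 1013 with no overlap (log2 fold change 1.65, adjusted p = 0.0094). Actn1, which crosslinks actin (0.97), Tpm4 (0.87) and Tagln2 (0.57) had no overlap either. Myl9 and Lcp1 did not pass (0.18, adjusted p = 0.18, and 0.11, adjusted p = 0.43).

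Of 22 tested genes of NF-kB and inflammatory cytokines 16 were higher and 0 lower, with a median log2 fold change of 0.66 and 11 without overlap. Over all tested genes 13.1% were higher, and 4.65% were higher without overlap. The subunit Rela lay at 768 to 943 (median 871) in Polg+/+ and 1092 to 1244 (median 1175) in PolgD257A kidneys (log2 fold change 0.42, SE 0.05, limma adjusted p = 2.4e-04). Relb, a subunit that NF-kB itself induces, lay at 156 to 294 against 389 to 511 (log2 fold change 1.00, adjusted p = 5.3e-04). The inhibitor Nfkbia (0.44, adjusted p = 1.6e-04) and the tumour necrosis factor receptor Tnfrsf1a (0.58, adjusted p = 2.9e-04) rose with no overlap. Ccl2, a monocyte attractant, did not pass (0.48, adjusted p = 0.40), nor did Rel (0.38, adjusted p = 0.21). Of 21 interferon and nucleic acid sensing genes 6 were higher and 0 lower (median 0.25). These included the RNA sensor Ddx58 (0.36, adjusted p = 0.0014), Tmem173, which encodes STING (0.83, adjusted p = 0.011), Ifit2 (0.44, adjusted p = 0.026) and Oasl1 (0.62, adjusted p = 0.032). Without Polg+/+ replicate 1 the count was 3, and without PolgD257A replicate 1 or 2 it was 2. Ifit2 was lost without PolgD257A replicate 1 or 2 (adjusted p = 0.052 to 0.062), and Oasl1 without any one of Polg+/+ replicates 1 and 2 and PolgD257A replicates 1 to 4 (adjusted p = 0.062 to 0.074). Ifit3 (0.09, adjusted p = 0.71) and Stat2 (0.12, adjusted p = 0.22) did not pass. The same list had a median of 0.36 in sham kidneys, where Irf7, a regulator of interferon genes, lay at 199.9 to 312 in Polg+/+ and 358 to 519 in PolgD257A (log2 fold change 0.72, adjusted p = 0.0044). After B-IRI Irf7 lay at 170.1 to 313 and 212 to 516 (0.36, adjusted p = 0.15).

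The series title names nucleotide biosynthesis. Cells build purines and pyrimidines de novo from amino acids, one-carbon units and phosphoribosyl pyrophosphate (PRPP), or recover them by salvage. Of 13 de novo purine genes 6 were higher and 3 lower (median log2 fold change 0.03), so the list did not move as 1 block. Over all genes tested 13.1% were higher and 13.5% lower. Impdh2, the first enzyme of the branch to guanine nucleotides, lay at 1016 to 1203 (median 1091) in Polg+/+ and 1413 to 1566 (median 1441) in PolgD257A kidneys. Its groups did not overlap (log2 fold change 0.41, SE 0.05, limma adjusted p = 2.4e-04), and its paralog Impdh1 rose likewise (0.54, adjusted p = 4.4e-04). The genes for the enzyme that makes PRPP went apart. Prps1 lay at 734 to 865 against 935 to 981 (0.25, adjusted p = 0.0014), and Prps2 lay at 1471 to 1601 against 992 to 1349 (-0.44, adjusted p = 4.1e-04), both without overlap. Paics, which carries out middle steps of purine assembly, lay at 5442 to 5834 against 4649 to 5397 with no overlap (-0.19, adjusted p = 0.011). Adssl1, of the branch to adenine nucleotides, also fell (-0.66, adjusted p = 0.0021). Adsl and Gmps did not pass (0.03, adjusted p = 0.73, and -0.08, adjusted p = 0.23). Impdh2 overlaps Ndufaf3 and Paics overlaps Ppat on the other strand.

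Of 8 de novo pyrimidine genes 2 were higher and 0 lower, beside 13.1% and 13.5% of all genes. Cad, the enzyme of the first 3 steps, lay at 491 to 636 (median 577) in Polg+/+ and 617 to 1039 (median 883) in PolgD257A kidneys (log2 fold change 0.58, SE 0.11, limma adjusted p = 0.0016). Its lowest PolgD257A library fell within the Polg+/+ range. Ctps, which makes CTP, lay at 1183 to 1838 against 2063 to 2640 with no overlap (0.63, adjusted p = 9.0e-04). Nme1 and Cmpk1 did not pass (-0.02, adjusted p = 0.90, and 0.08, adjusted p = 0.19). Of 12 deoxynucleotide genes 0 were higher (1 without Polg+/+ replicate 2 or PolgD257A replicate 5 or 6) and 1 was lower, Rrm2b, the ribonucleotide reductase subunit that serves non-dividing cells and mitochondrial DNA. It lay at 534 to 622 (median 561) against 441 to 497 (median 470) with no overlap (-0.28, SE 0.05, adjusted p = 0.0015). Dtymk (0.02, adjusted p = 0.88) and Samhd1 (0.07, adjusted p = 0.36) did not pass. The count of 1 lower gene in this list was below the 13.5% share over all genes.

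Of 23 salvage and breakdown genes 5 were higher and 3 lower, against 13.1% and 13.5% of all genes, so the count of lower genes was at the share over all genes and the count of higher genes little above it. Uck2, which salvages uridine and cytidine (log2 fold change 0.48, limma adjusted p = 9.2e-04), Xdh, which makes uric acid (0.77, adjusted p = 0.0019), and Ampd3, which deaminates AMP (0.73, adjusted p = 0.0011), rose. The pyrimidine breakdown enzymes Upb1 (-0.68, adjusted p = 7.0e-04) and Upp2 (-0.65, adjusted p = 0.0063) fell. The nucleoside transporter Slc28a1 (-0.44, adjusted p = 0.04) did not pass without any one of Polg+/+ replicates 1, 4 and 5 and PolgD257A replicates 1 to 4 (adjusted p = 0.053 to 0.082). The pentose phosphate pathway supplies ribose for PRPP, and 5 of its 8 genes were higher and 1, Rpe, was lower (median log2 fold change 0.22), though Rpe did not pass without Polg+/+ replicate 5 (adjusted p = 0.059). Taldo1 lay at 6744 to 7950 against 8517 to 10621 with no overlap (0.37, adjusted p = 0.0013), and G6pdx, which encodes the entry enzyme and overlaps Ikbkg, rose by 0.26 (adjusted p = 0.0054).

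Of 21 serine and folate one-carbon genes 10 were lower and 3 higher (median log2 fold change -0.14). The count of higher genes was near the 13.1% of all genes, of which 13.5% were lower. Shmt2, the mitochondrial enzyme that takes one-carbon units from serine, lay at 4483 to 5949 (median 4843) in Polg+/+ and 3053 to 4038 (median 3634) in PolgD257A kidneys, with no overlap (log2 fold change -0.50, SE 0.08, limma adjusted p = 0.001). The sarcosine and dimethylglycine dehydrogenases Sardh (-0.64, adjusted p = 2.4e-04) and Dmgdh (-0.72, adjusted p = 6.8e-04) and the histidine breakdown enzyme Ftcd (-0.77, adjusted p = 0.001) fell with no overlap. The 3 that rose were Psat1 of serine synthesis (0.54, adjusted p = 0.0075) and the mitochondrial folate enzymes Mthfd2 (0.71, adjusted p = 0.016) and Mthfd1l (0.81, adjusted p = 0.0046). Phgdh, the first enzyme of serine synthesis, did not pass (0.34, adjusted p = 0.22). Proximal tubule genes fell in the same libraries, as given above, and their part in the falls of this list was not tested.

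**Figure D3:**
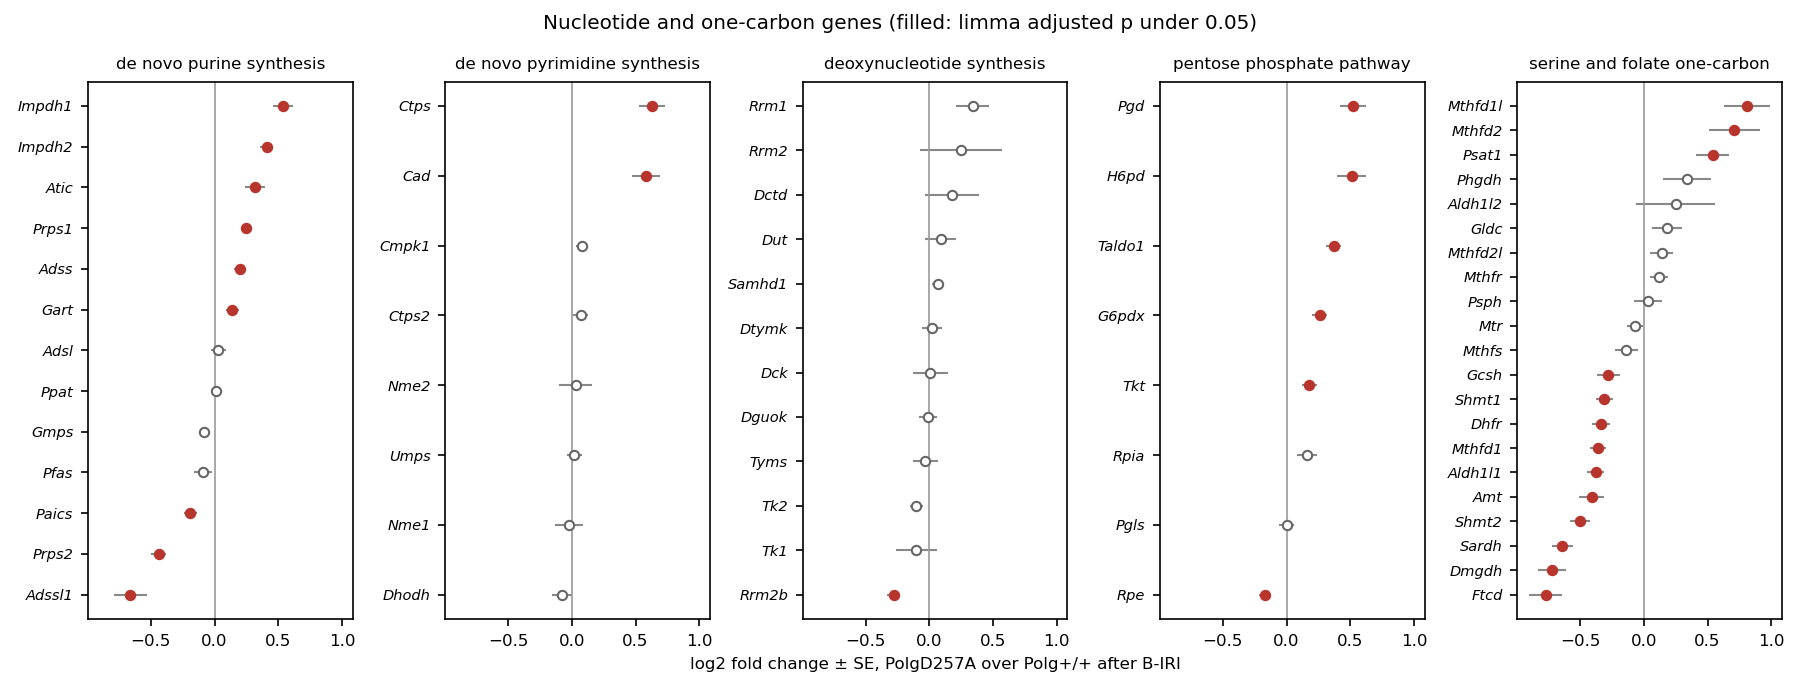
Log2 fold change ± SE (PolgD257A over Polg+/+ after B-IRI) of every tested gene of 5 lists of nucleotide and one-carbon metabolism. Points are filled where the limma adjusted p is under 0.05. Purine genes lie on both sides of 0, from Adssl1 at -0.66 to Impdh1 at 0.54, both called pyrimidine genes lie above 0, and 10 of the 13 called one-carbon genes lie below 0.

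The integrated stress response, which cells with faulty mitochondria often switch on through Atf4, was higher in part. Of 25 tested genes 13 were higher and 2 lower (median log2 fold change 0.53), against 13.1% and 13.5% of all genes. In sham kidneys the median was 0.11, and Asns and Atf5 passed. Relative to the sham Polg+/+ mean, the list's mean log2 level lay at -0.08 to 0.10 in sham Polg+/+ and 0.15 to 0.40 in sham PolgD257A libraries. The genotype effect differed between surgeries for 7 of the 25. Atf5 was higher in sham PolgD257A kidneys (0.55, limma adjusted p = 0.01) and did not pass after B-IRI (0.40, adjusted p = 0.22). Gdf15, a stress hormone, lay at 389 to 852 (median 615) in Polg+/+ and 1431 to 1852 (median 1591) in PolgD257A kidneys, with no overlap (log2 fold change 1.41, SE 0.17, limma adjusted p = 1.9e-04). Atf3, a stress-induced transcription factor, lay at 71.7 to 202 against 249 to 478 with no overlap (1.36, adjusted p = 0.0011). The translation repressor Eif4ebp1 (0.76, adjusted p = 0.0016) and the growth brake Ddit4 (0.57, adjusted p = 0.0025) rose as well. Cth (-0.46, adjusted p = 0.0028) and Vldlr (-0.26, adjusted p = 0.0035) fell. The tRNA synthetase genes Nars and Sars did not pass (0.21, adjusted p = 0.054, and 0.19, adjusted p = 0.15), but Nars did without PolgD257A replicate 2 (adjusted p = 0.011). Asns, the asparagine synthetase that Atf4 induces, was higher in PolgD257A under both surgeries. It lay at 114 to 220.3 against 221 to 304 in sham kidneys (0.81, adjusted p = 0.015) and at 352 to 696 against 682 to 1503 after B-IRI (0.73, adjusted p = 0.016).

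Other stress lists were mixed, beside shares of 13.1% higher and 13.5% lower over all genes tested. Of 14 NRF2 and glutathione genes 6 were higher, among them Hmox1 (log2 fold change 1.24, limma adjusted p = 0.0013), Srxn1 (0.79, adjusted p = 0.0015) and Txnrd1 (0.45, adjusted p = 0.0018), and Gpx1 and Gstm1 were lower. Leaving out any 1 of the 12 libraries lost one or both of these 2 falls (adjusted p = 0.051 to 0.096 for those lost). Of 17 cell death genes 8 were higher and 1 lower. The survival genes Bcl2l1 (0.35, adjusted p = 5.7e-04) and Mcl1 (0.32, adjusted p = 0.0022), the necroptosis effector Mlkl (0.81, adjusted p = 0.0068) and the inflammatory caspase Casp4 (0.74, adjusted p = 0.0085) rose. Gpx4, which protects membranes from lipid peroxidation, fell (-0.25, adjusted p = 0.021), but not without Polg+/+ replicate 1 or PolgD257A replicate 1 or 4 (adjusted p = 0.05 to 0.053). Of 17 tested p53 and arrest genes 5 were higher and 2 lower. The counts of lower genes in the NRF2, cell death and p53 lists were near or below the 13.5% of all genes. Cdkn1a, the cell cycle inhibitor p21, lay at 220.2 to 653 (median 488) against 827 to 1213 (median 984) with no overlap (1.12, SE 0.20, adjusted p = 0.0015), and Trp53 rose by 0.52 (adjusted p = 4.5e-04). Mdm2 and Bax, both targets of p53, did not pass (0.12, adjusted p = 0.058, and 0.19, adjusted p = 0.069), and Ccng1 and Sesn1 fell. Mdm2 passed without PolgD257A replicate 2 or 6, and Bax without replicate 6, where the list had 8 higher genes. Few proliferation genes passed, below those shares. Of 15 G1/S genes 1 was higher, the licensing factor Cdt1 (0.38, adjusted p = 0.027), and of 15 mitosis genes 1 was lower, Kif20b (-0.51, adjusted p = 0.022). Cdt1 did not pass without any one of Polg+/+ replicates 1, 4 and 5 and PolgD257A replicates 1, 2 and 4 (adjusted p = 0.052 to 0.058). Top2a lay at 95.0 to 262 in Polg+/+ and 89.0 to 468 in PolgD257A kidneys (-0.03, adjusted p = 0.96). PolgD257A replicate 2 alone held the 468, and the next highest library of its group was at 204.

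Nuclear genes of the respiratory chain were lower in PolgD257A kidneys, while 1 mRNA encoded in mitochondrial DNA passed the test. Of 35 nuclear complex I genes 31 were lower and 0 higher (median log2 fold change -0.32), and for complexes II to V it was 30 of 37, again with 0 higher (median -0.30). Over all genes tested 13.5% were lower and 13.1% higher. Ndufs1, the largest subunit of complex I, lay at 5117 to 5975 (median 5588) in Polg+/+ and 3856 to 4654 (median 4217) in PolgD257A kidneys, with no overlap (log2 fold change -0.39, SE 0.06, limma adjusted p = 6.0e-04). The complex I gene Ndufb10 lay at 4319 to 5477 against 3165 to 4144 with no overlap (-0.40, adjusted p = 0.0022). Sdha, the catalytic subunit of complex II, lay at 17554 to 20587 against 14115 to 16482 with no overlap (-0.31, adjusted p = 0.0025), and the complex III core gene Uqcrc2 fell as well (-0.27, adjusted p = 0.0033). Cox4i1 of complex IV did not pass (-0.23, adjusted p = 0.052), but it did without PolgD257A replicate 2 or 3 (adjusted p = 0.015 to 0.021). Without PolgD257A replicate 1 or 4 the second list had 18 lower genes. In sham kidneys 0 genes of either list passed the genotype test, with medians of 0.07 and 0.06. Proximal and thick limb genes, from segments rich in mitochondria, fell in the same libraries, and their part in this was not tested.

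Of the 13 mRNAs encoded in mitochondrial DNA 1 was lower and 0 higher (median log2 fold change -0.05, or 0.01 with quantile normalisation, under which 0 passed). This was mt-Cytb of complex III, at 297165 to 380575 (median 324405) in Polg+/+ and 239134 to 254178 (median 247807) in PolgD257A kidneys, with no overlap (log2 fold change -0.41, SE 0.14, limma adjusted p = 0.036). It did not pass with a pseudocount of 5 or quantile normalisation, or without any 1 library other than Polg+/+ replicate 4 and PolgD257A replicate 2 (adjusted p = 0.051 to 0.08), and edgeR and DESeq2 called 2 and 3 of the 13. mt-Co1 and mt-Nd1 did not pass (-0.13, adjusted p = 0.64, and -0.06, adjusted p = 0.76). The 1 lower mRNA of 13 was below the 13.5% share over all genes. In sham kidneys 0 of the 13 mRNAs passed the genotype test, but their median log2 fold change was 0.20. Relative to the sham Polg+/+ mean, their mean log2 level lay at -0.10 to 0.08 in sham Polg+/+ and 0.06 to 0.33 in sham PolgD257A libraries. After B-IRI this level lay at -0.44 to -0.15 in Polg+/+ and -0.43 to -0.34 in PolgD257A libraries. The genotype effect differed between the surgeries for 1 of the 13. Of 14 tested tRNA genes of mitochondrial DNA 2 were higher and 1 lower after B-IRI, and 2 were higher and 0 lower in sham kidneys. After B-IRI these counts were near or below the 13.1% higher and 13.5% lower of all genes. In sham kidneys 0.212% of all genes were called. The proline tRNA gene mt-Tp lies on the opposite strand of mitochondrial DNA and was higher in PolgD257A under both surgeries. It lay at 4586 to 5754 against 8365 to 10354 after B-IRI (0.90, SE 0.07, adjusted p = 2.1e-05) and at 3980 to 6358 against 11856 to 15450 in sham kidneys (1.30, adjusted p = 2.6e-06). Counts per gene do not tell whole tRNAs from longer RNAs that run over a tRNA gene. The leucine tRNA gene mt-Tl1 was likewise higher under both surgeries (0.63, adjusted p = 0.027, and 1.13, adjusted p = 0.0026). After B-IRI it did not pass without any one of Polg+/+ replicates 2, 4 and 5 and PolgD257A replicates 1 and 6 (adjusted p = 0.052 to 0.068). The other leucine tRNA gene, mt-Tl2, was lower after B-IRI, at 156 to 223 (median 183) against 102 to 145 (median 124) with no overlap (-0.58, SE 0.11, adjusted p = 0.0017). In sham kidneys mt-Tl2 did not pass (-0.13, adjusted p = 0.84).

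Among 15 mitochondrial DNA maintenance genes 2 were lower, at the 13.5% share over all genes, and 0 higher (1 without Polg+/+ replicate 3 or 6 or PolgD257A replicate 6). They were the packaging factor Tfam (log2 fold change -0.23, limma adjusted p = 0.01) and the pyrimidine nucleotide carrier Slc25a36 (-0.26, adjusted p = 0.02). Of 10 biogenesis regulators 6 were lower and 1 higher (median -0.35). Esrra, an orphan receptor that drives respiratory genes, lay at 3804 to 4467 (median 4195) against 2640 to 3383 (median 3120) with no overlap (-0.46, SE 0.07, adjusted p = 5.0e-04). Esrrg (-0.35, adjusted p = 0.0018) and the deacetylase Sirt3 (-0.45, adjusted p = 0.0022) fell, the co-activator Pprc1 rose (0.52, adjusted p = 8.1e-04), and Ppara did not pass (-0.06, adjusted p = 0.80). Of 17 fatty acid oxidation genes 3 were lower and 0 higher, again near that share. Acadm, the medium-chain dehydrogenase, lay at 15697 to 24084 against 9864 to 15198 with no overlap (-0.54, adjusted p = 0.004), and Ehhadh of the peroxisome did not pass (-0.11, adjusted p = 0.77). Of 16 glycolysis genes 2 were higher and 3 lower (5 lower with DESeq2), near the shares of all genes called. Hk2, the inducible hexokinase, lay at 11.2 to 109 against 96.6 to 231 (1.48, SE 0.42, adjusted p = 0.018), and Hk1 (-0.29, adjusted p = 0.0086) and Pfkm (-0.49, adjusted p = 0.0015) fell. Of 7 gluconeogenesis genes 3 were lower. G6pc, the last enzyme of glucose release, lay at 3177 to 4584 against 1181 to 2470 with no overlap (-1.03, adjusted p = 6.2e-04), and Pck1 did not pass (0.08, adjusted p = 0.88).

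**Figure D4:**
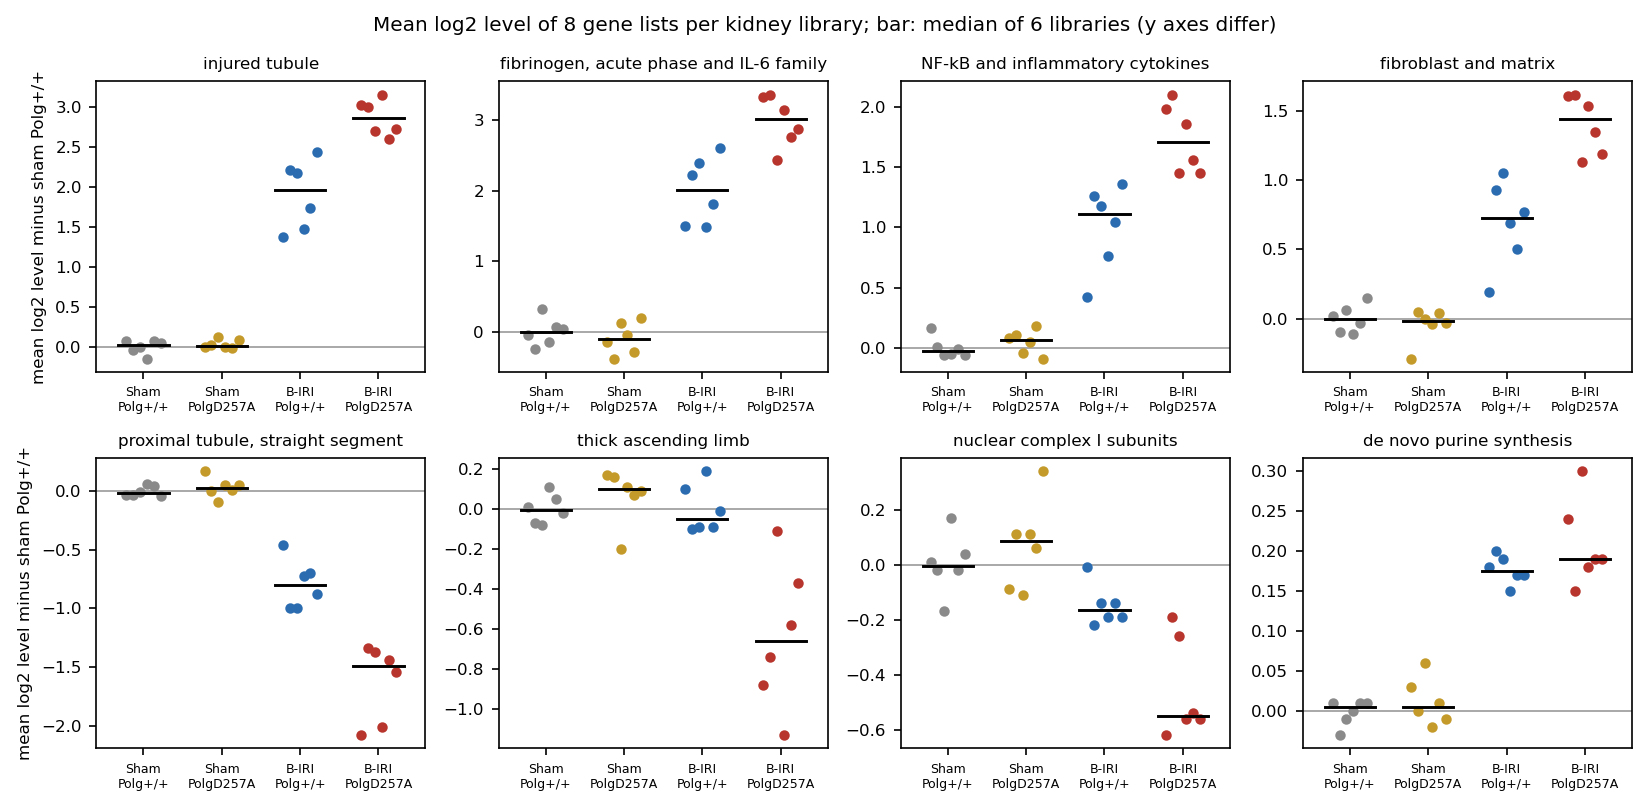
Mean log2 level over the tested members of 8 gene lists in each of the 24 libraries, minus the mean of the sham Polg+/+ libraries. Each point is 1 library and the bar is the group's median. After B-IRI the injured tubule score lies at 1.37 to 2.44 in Polg+/+ and 2.60 to 3.16 in PolgD257A kidneys, the straight proximal tubule score of every PolgD257A kidney, at most -1.34, lies below all Polg+/+ ones, and the scores of de novo purine synthesis overlap at 0.15 to 0.20 and 0.15 to 0.30.

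Most of the genotype difference was seen after B-IRI and not after sham surgery, and the difference of the differences was tested directly. The interaction of surgery and genotype passed for 2780 genes (15.9% of those tested), 1198 with a higher and 1582 with a lower PolgD257A effect after B-IRI. Lcn2 had an interaction of 2.22 on the log2 scale (limma adjusted p = 0.0023) and Egf of -2.14 (adjusted p = 3.1e-04). For Slc7a13 it was -1.92 (adjusted p = 9.2e-05), for Fgb 1.90 (adjusted p = 0.0098) and for Havcr1 1.07 (adjusted p = 0.035). For all of these 5 genes, then, the genotype effect after B-IRI differed from that after sham surgery. The largest interactions upward were those of Lgi2 (2.51), Lcn2, Sox9 (1.98), Krt20 (1.94) and Adamts4 (1.93). Downward they were Nccrp1 (-2.36), Egf, Pvalb (-2.09), Tmem207 (-1.98) and Nat8f6 (-1.94). The interaction of Fga was 1.38 (adjusted p = 0.012) and that of Fgg 1.70 (adjusted p = 0.0022).

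Of the 37 genes called in sham kidneys, 21 were also called after B-IRI, 18 of them in the same direction. These 21 are 56.8% of the sham calls and 0.454% of the B-IRI calls. The sham genes with the smallest adjusted p were Hddc3, mt-Tp, Lgals3bp, Hapln3 and, at the same adjusted p, Ngrn and 1 gene without a symbol (ENSMUSG00000118642.2). Hapln3, which is among the 7 genes near Polg given below, reached the filter's 10 normalised counts only in PolgD257A libraries. It lay at 2.36 to 7.69 in sham Polg+/+ and 19.4 to 38.0 in sham PolgD257A kidneys, and at 1.73 to 3.67 and 2.66 to 17.4 after B-IRI. It was thus tested only through the group where it was high, and its call is a description. Hddc3, a nucleotide pyrophosphohydrolase near Polg, lay at 48.5 to 78.0 in sham Polg+/+ and 205 to 252 in sham PolgD257A kidneys, and at 57.6 to 65.1 and 148 to 212 after B-IRI. Its log2 fold changes were 1.93 (limma adjusted p = 3.0e-08) and 1.45 (adjusted p = 2.4e-06). Lgals3bp, a secreted glycoprotein, had log2 fold changes of 0.76 and 0.68, and Ngrn, a mitochondrial RNA-binding protein, 0.51 and 0.53. The opposite direction was held by 3 genes. Of 118 tested genes within 10 Mb of Polg on chromosome 7, 7 were called in sham kidneys (5.93%) and 41 after B-IRI (34.7%), and all 7 were among the 41. Over all tested genes the shares were 0.212% in sham kidneys and 26.5% after B-IRI. Polg and the D257A allele lie in this stretch, and an effect of linked sequence from the strain in which the allele was made cannot be told apart from an effect of the allele.

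**Figure D5:**
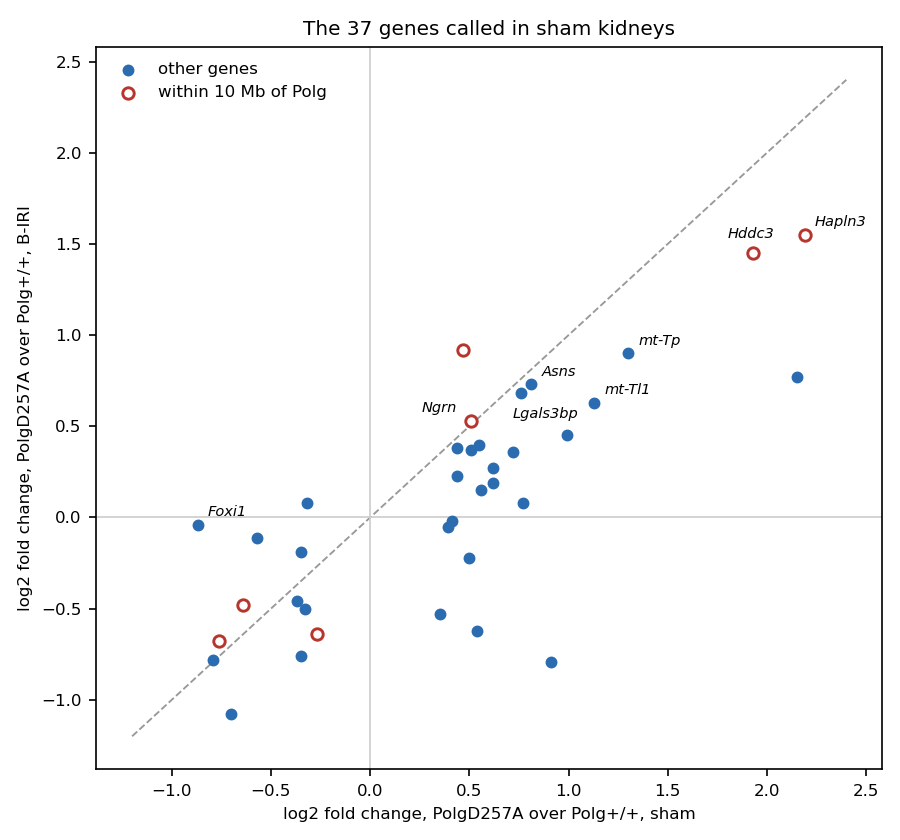
Log2 fold change of PolgD257A over Polg+/+ in sham kidneys (x axis) and after B-IRI (y axis) for the 37 genes called in sham kidneys. Open points are genes within 10 Mb of Polg on chromosome 7, filled points all others, and the dashed line marks equal values. The 7 genes near Polg kept their sign, and Hddc3 lies at 1.93 in sham and 1.45 after B-IRI.

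The authors' deposited table held 1401 genes, of which 651 were higher and 750 lower, with absolute shrunken log2 fold changes of at least 0.50. Of these, 1345 passed the filter used here, all 1345 had the same sign in both, and 1291 were called here (92.1% of the authors' deposited table and 27.9% of the calls here). Among the largest in the authors' deposited table were Fgb at 2.00 (SE 0.37), Lcn2 at 1.82, Fga at 1.75 and Lif at 1.73 upward. Downward in the authors' deposited table were Kcng1 at -1.91, Egf at -1.85, Slc7a13 at -1.80, Mep1b at -1.70 and Tmem207 at -1.62.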

How the data were processed

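Total RNA was extracted from whole kidneys with an RNeasy kit, and libraries were prepared with a NEBNext Ultra II kit, per the labels' protocols. The submitters' processing notes name FastQC, STAR, SAMtools, featureCounts, DESeq2 and GRCm38.p6, with no versions. The authors deposited normalised counts (a signal scaled per library) for 55416 gene IDs. In each library all values above 0 were whole reads (within 0.001) divided by 1 size factor (0.740 to 1.31), which gave back counts of 16689284 to 26341004 assigned reads over the 24 libraries. They also deposited a table of log2 fold changes for 1401 genes, with mean counts and s-values, a kind of q-value for the sign of a change, as deposited.

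Library columns are named Ctrl or Mut and Sham or SurgBIR, and these were read as Polg+/+ or PolgD257A and sham or B-IRI. That reading is an inference from the names. Genes with at least 10 normalised counts in at least 6 of 24 libraries were tested with limma 3.58.1 (R 4.3.3) on log2(normalised count + 1), with trend, over the 12 B-IRI libraries, then over the 12 sham libraries, and for the interaction over all 24. P-values are two-sided and Benjamini-Hochberg adjusted over all tested genes at 0.05. Fold changes are on this scale, which understates those of low genes. Library measures were compared with an exact permutation test over all 924 relabelings. The procedure was tested on simulated data. Alternatives were edgeR 4.0.16 and DESeq2 1.42.0 on the recovered reads, other pseudocounts, filters, scalings and weights, a replicate block and leaving out each library.

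The members and lists were chosen with earlier results of these data known, so list counts are descriptions. Genes are named by rule: the 12 largest rises and falls with a mean of at least 100 normalised counts, the 5 largest gains and losses in counts, up to 4 called and 2 missed members of each of 40 lists, called members against a list's majority, the 5 largest interactions of each sign, the 5 smallest adjusted p in sham and the 5 largest changes of each sign in the authors' deposited table. Polg, Havcr1, Lcn2, the fibrinogen chains, Egf and Slc7a13 were always named. Foxi1, Irf7, Asns, Rhcg, Atf5, Areg, Cxcr2, Retnlg, mt-Tl1 and mt-Tl2 were chosen after their values were seen. A few genes that the rule names are not reported here. Gene positions are from GENCODE M21, in which 94.08% of IDs were found. Where a gene overlaps another on the opposite strand (Polg, Egf, Fgg, Hk2, Cp, Stat3, Csf1r, Hddc3, Adamts4, Impdh2, Paics and others), reads of the pair cannot be told apart without strand, which the sources used here do not give.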

Additional observations from a re-analysis of the deposited data

Results flagged for a closer look

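In 30 of 404 groups of 6 libraries tested (Dixon's test at 95%, which chance flags in about 1 in 20 groups), 1 library stood apart from the other 5 of its group for a gene named above. Polg+/+ replicate 1 after B-IRI was that library for 12 of the 15 groups of its genotype. In normalised counts it was high for the mitochondrial genes Acadm (24084), Cox4i1 (20017) and Ndufb10 (5477). It was low for the stress response and serine genes Asns (352), Mthfd2 (289), Nars (4439) and Phgdh (702), and for Myc (186), Rel (23.3), Xdh (890.1), Eng (1239) and Synpo (863). In the same group replicate 3 was high for Mmp7 (14.7), replicate 5 for Pvalb (459.9) and replicate 6 for mt-Tl1 (84.2).

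Among the PolgD257A libraries after B-IRI, replicate 4 was high for the neutrophil genes Csf3r (114) and S100a8 (157) and for Ccn1 (3912), Flnc (1013) and Mmp7 (87.0). Replicate 2 was high for the mitosis genes Kif20b (189) and Top2a (468) and for Gpx1 (31766), and low for Psat1 (2181). Replicate 3 was high for Mep1b (1548) and Impdh2 (1566), replicate 6 for Cp (4161) and replicate 5 for Slc25a36 (1775). Replicate 1 was high for Pprc1 (709) and low for the gene without a symbol, ENSMUSG00000118642.2 (296).

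The effect of genotype differed between surgeries, by the limma interaction test, for 2780 genes. Among those named it was more positive after B-IRI, on the log2 scale, for Lgi2 (2.51), Lcn2 (2.22), Sox9 (1.98), Krt20 (1.94), Adamts4 (1.93), Fgb (1.90), Fgg (1.70), Fga (1.38) and Havcr1 (1.07). It was more negative for Nccrp1 (-2.36), Egf (-2.14), Pvalb (-2.09), Tmem207 (-1.98), Nat8f6 (-1.94) and Slc7a13 (-1.92).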

How the results depend on the processing

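Over the 23 alternatives tried the B-IRI comparison called 1641 to 2487 genes higher and 1819 to 2653 lower (2278 and 2347 as reported), and edgeR and DESeq2 called 2329 and 2436 higher. Leaving out 1 library gave 1641 to 2268 higher and 1839 to 2414 lower. The interaction gave 842 to 1380 higher and 1197 to 1862 lower. Of the 197 genes named, 153 were called and 133 of these kept direction and call in all 23 alternatives. Rhcg, Atf5 and Areg were not among the 197. Sham counts (25 higher, 12 lower) moved to 81 and 32 with DESeq2, 50 and 20 with library weights and 15 and 7 with the variance pooled over 24 libraries, and to 13 to 33 and 6 to 12 without 1 library. Among list counts, quantile normalisation left 0 lower genes in the NRF2 and cell death lists and 1 in the p53 list, and ended the calls of Ccng1 (adjusted p = 0.094) and Sdha (adjusted p = 0.062). A filter at a mean of 50 left 1 neutrophil gene higher and 0 lymphocyte genes lower, and the pooled variance gave 3 higher G1/S genes. The median of the mitosis list, 0.16, was -0.02 with that filter and -0.06 with library weights. Within 20 Mb of Polg 68 of 223 genes (30.5%) were called after B-IRI, against 41 of 118 (34.7%) within 10 Mb, and 7 were called in sham kidneys in both windows.

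No pairing of libraries by replicate number was seen. Same-numbered deviations correlated at -0.33 to 0.17 after B-IRI and -0.02 to 0.08 in sham, and 1 of 6 correlated best with its own number in each. Such correlations cannot exclude a pairing by design, which the labels do not give. With the replicate block 1670 genes were called higher and 1819 lower. Cd3g, Cdt1, Csf3r, Fth1, Gpx1, Gpx4, Gstm1, Hk2, Kap, Oasl1, Rpe, S100a8, S100a9, Slc28a1 and mt-Cytb were then not called (adjusted p = 0.051 to 0.13), which left 0 neutrophil genes higher.

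The genes below were not called after B-IRI, and the cause of their changes of sign was not tested. Log2 fold changes changed sign with library weights for Dcn (-0.06), Dtymk (-0.02), Ehhadh (0.08), Krt7 (-0.01) and Ppara (0.01), with quantile normalisation for Dcn (-0.01), Ehhadh (0.04), mt-Co1 (0.00) and mt-Nd1 (0.15), with edgeR for Nme1 (0.00) and Top2a (0.17), and with DESeq2 for Top2a (0.16). Without 1 library they ranged from -0.01 to 0.06 for Adsl, -0.05 to 0.10 for Dcn, -0.02 to 0.07 for Dtymk, -0.26 to 0.04 for Ehhadh, -0.09 to 0.01 for Foxi1, -0.04 to 0.22 for Hbb-bs, 0.00 to 0.18 for Ifit3, -0.03 to 0.08 for Krt7, -0.11 to 0.04 for Nme1, -0.13 to 0.29 for Pck1, -0.13 to 0.02 for Ppara and -0.36 to 0.12 for Top2a. Differences between genotypes in library measures, likewise without 1 library, ranged from -945073 to 628836 assigned reads, -114 to 139 genes detected, -0.543 to -0.353 percentage points of mitochondrial reads and -0.606 to -0.393 of the 50 most abundant genes. Depth limits the genes of few reads, such as those of neutrophils.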
